A study of Mus musculus with 12 samples.

Results

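The comparison described here set central regulatory T (cTreg) cells activated in culture for 20 h against the same kind of cells taken at 0 h, on 3 arrays each. These 6 arrays were picked out from the 12 of the series by their titles. The rest came from activated cells to which an inhibitor of mTOR had been added, PP242 for some and Torin 1 for others. Those arrays also entered the fit, so the estimate of the spread rests partly on inhibitor-treated cells. In the comparison, activated cells had received anti-CD3 and anti-CD28 antibodies, recombinant IL-2 and the vehicle DMSO for 20 h. Unstimulated cells were labelled 0 h in the presence of DMSO and had no stimulation. All cells were Foxp3-YFP+ CD4+ CD62L+ CD44- cells sorted from the spleen and peripheral lymph nodes of Foxp3-YFP+ transgenic mice backcrossed to C57BL/6, in which Foxp3 drives the YFP reporter. The labels do not give the age of the mice, and whether cells of several animals were pooled is not given in the sources used here. No group was kept for 20 h without stimulation, so activation cannot be told apart from 20 h of culture with IL-2. Small amounts of RNA were amplified with the WT Pico protocol and hybridised to GeneChip Mouse Gene 2.0 ST arrays, and a value is a log2 expression level as the authors deposited it. For 22180 genes the transcript cluster, the unit that the array measures, carried exactly 1 gene symbol, and these genes were tested.

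Treg cells restrain other lymphocytes and depend on the transcription factor FOXP3. The central subset resembles naive T cells: it recirculates through lymph nodes and divides little. A signal through the T cell receptor and CD28 opens calcium channels and activates the RAS to ERK, NF-kappaB and PI3K to mTOR routes. Early transcription factors of the EGR, NR4A and AP-1 families come first, factors such as IRF4 and BATF follow, and the cell then exchanges the receptors of a resting lymphocyte for those of an effector.

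Of the 22180 genes, 2612 were higher in activated cells, which is 11.8% of the genes tested, and 2678 were lower, which is 12.1%, or 23.9% in either direction (limma, Benjamini-Hochberg adjusted p under 0.05). At least 2-fold changes passed this test for 568 higher and 178 lower genes, 2.56% and 0.803% of those tested. The shares of 11.8% and 12.1% over all genes are the reference for every gene list counted below, and they are not matched for level. Higher genes made up 49.4% of all calls with the deposited values, 55.7% after quantile normalization across the arrays and 62.9% with each array centred on its median. The median change over all genes was -0.035 on the log2 scale with the deposited values and 0.039 with the arrays centred. Calls were concentrated among genes with high levels: of the 4436 genes with the highest mean levels, 25.6% were higher and 27.7% lower, against 3.81% and 1.71% of the 4436 with the lowest. No list was compared with genes of a like level, so the part of level in the shares of a list was not tested. The fit was repeated under 16 alternatives, 6 of which left out 1 array each, and a gene named below as higher or lower passed the test under all of them unless an exception is stated. For each such gene the 3 arrays of one group also lay wholly above the 3 of the other. Over all genes this held for 3859 in the higher direction (17.4%) and 4668 in the lower (21%). These are more genes than were called, so such separation adds little to the test.

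**Figure D1:**
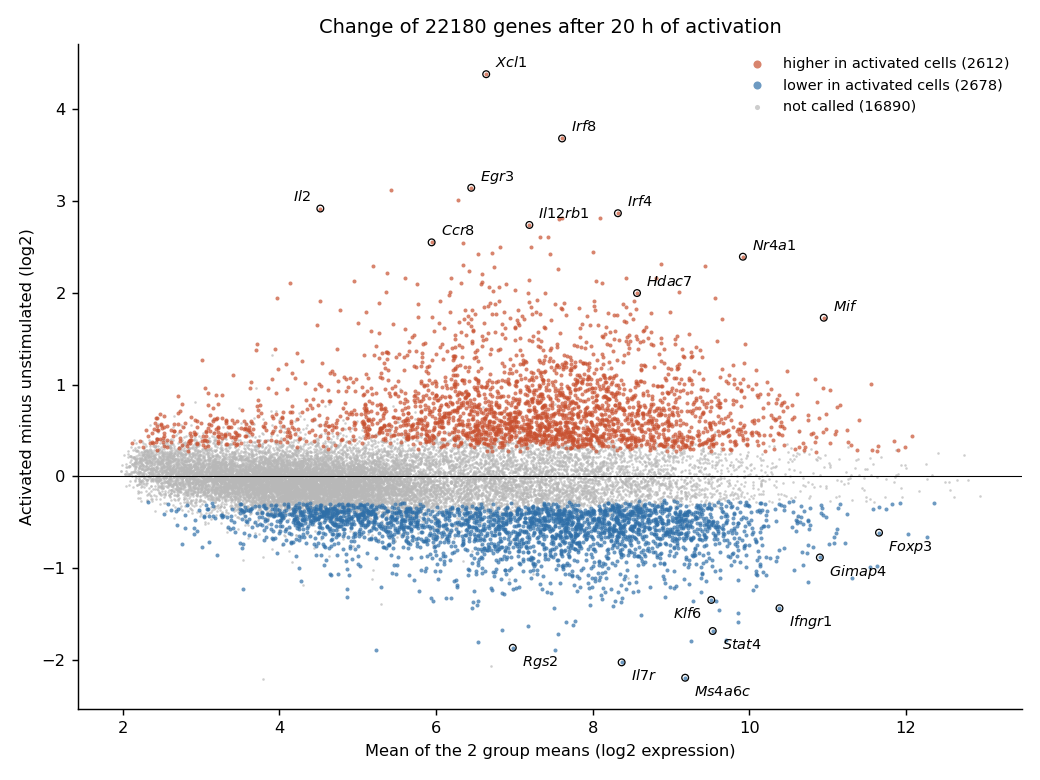
Activated minus unstimulated log2 expression (vertical axis) against the mean of the 2 group means (log2, horizontal axis), with 1 point for each of 22180 genes. The 2612 higher genes (red) reach larger changes, up to 4.38 for *Xcl1*, than the 2678 lower genes (blue), in which the labelled *Ms4a6c* stands at -2.19; 16890 genes were not called (grey).

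The labelled cell type was checked against its markers. Among 16 markers of Treg and T cells, the mean level was 10.2 to 10.3 on activated arrays and 10.3 to 10.4 on unstimulated arrays. *Foxp3* itself was at 11.43, 11.29 and 11.34 on the activated arrays, against 11.95, 11.95 and 11.99 on the unstimulated arrays. It was lower in activated cells by a log2 difference of -0.61 (SE 0.09, adjusted p = 0.000163). *Il2ra*, the alpha chain of the IL-2 receptor, lay between 11.99 and 12.01 on activated arrays and between 11.83 and 11.95 on unstimulated arrays, and its difference of 0.12 (95% interval -0.07 to 0.31) did not pass the test. The arrays carry no detection calls, so 1390 olfactory and vomeronasal receptor genes, which T cells are not known to use, served as a scale: their median level was 3.00 and their 95th percentile 5.14. Means below 5.14 are described here as within the silent range. Of the markers of other cells, 8 of 12 of B cells, 7 of 16 of monocytes, macrophages and dendritic cells, 12 of 13 of granulocytes and 4 of 8 of platelets had means within that range in both groups. The platelet markers averaged 4.83 to 4.88 on activated arrays and 5.17 to 5.21 on unstimulated arrays, the B cell markers 4.59 to 4.79 and 4.71 to 4.84, and those of monocytes, macrophages and dendritic cells 4.77 to 5.06 and 5.05 to 5.19. The 6 CD8 T cell markers averaged more than these, with 5.94 to 6.09 on activated arrays and 6.13 to 6.36 on unstimulated arrays. Of these 6, 3 were within the silent range in both groups and 2, *Cd7* among them, were lower in activated cells. The part of such cells in any result was not tested. In these bulk samples, fewer cells of a kind and less RNA in each cell cannot be told apart.

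Early transcription factors of receptor signalling differed in both directions at 20 h, with the EGR and NR4A genes among the higher ones. Of 25 measured genes of this list, 11 were higher and 3 lower, where 11.8% and 12.1% of all genes were, with a median change of 0.14 against -0.035 over all genes. *Egr3*, which restrains T cell responses, was at 8.08, 8.04 and 7.95 on the activated arrays, against 4.62, 5.09 and 4.92 on the unstimulated arrays. The groups lay far apart, with a difference of 3.14 (SE 0.15, adjusted p = 1.9e-08). The unstimulated mean was within the silent range, so this log2 difference may understate the change. Its relatives *Egr2* (2.50, SE 0.13) and *Egr1* (2.42, SE 0.13) differed by nearly as much, while the NAB proteins that bind EGR factors moved apart, with *Nab2* higher by 1.00 (0.66 when its transcript clusters were summarised by their median) and *Nab1* lower, at -0.49. All 3 members of the NR4A family, nuclear receptors that respond to receptor signal strength, were higher. *Nr4a1* was at 11.20, 11.16 and 10.98 on activated arrays, against 8.51, 8.85 and 8.81 on unstimulated arrays, a difference of 2.39 (SE 0.11, adjusted p = 1.56e-08). *Nr4a3* differed by 1.78 (SE 0.10) and *Nr4a2* by 1.23 (SE 0.16). *Myc*, a driver of growth, was higher by 0.89, *Zfp36*, which destabilises cytokine mRNA, by 0.69, and *Srf*, a partner of the ternary complex factors below ERK, by 0.57. The 3 lower genes of the list were *Fosb*, an AP-1 subunit (-1.36, SE 0.20), *Klf6*, a zinc finger factor (-1.34, SE 0.10), and *Nab1*. They show that the list did not move as one.

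The promoters of the NR4A genes and of *Egr2* are shown because these genes rose together and because their known regulators read short sequence motifs. Each sequence is the 250 bases before the annotated start, from RefSeq on build GRCm38.p6, with the motif in capitals on whichever strand it occurs. In the first 3 the motif is TGACG, the core of the cAMP response element bound by CREB and ATF factors, or its complement CGTCA. *Nr4a1* lies at chr15:101266596-101266845 on the plus strand, *Nr4a2* at chr2:57124004-57124253 on the minus strand and *Nr4a3* at chr4:48045055-48045304 on the plus strand. In *Egr2*, at chr10:67537316-67537565 on the plus strand, the capitals mark a CArG box, the site bound by SRF.
Nr4a1: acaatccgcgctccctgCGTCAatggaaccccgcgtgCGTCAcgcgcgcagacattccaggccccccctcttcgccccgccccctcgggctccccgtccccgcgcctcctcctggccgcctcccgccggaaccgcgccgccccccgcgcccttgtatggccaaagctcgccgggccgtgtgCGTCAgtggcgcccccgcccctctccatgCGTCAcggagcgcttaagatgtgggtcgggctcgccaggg
Nr4a2: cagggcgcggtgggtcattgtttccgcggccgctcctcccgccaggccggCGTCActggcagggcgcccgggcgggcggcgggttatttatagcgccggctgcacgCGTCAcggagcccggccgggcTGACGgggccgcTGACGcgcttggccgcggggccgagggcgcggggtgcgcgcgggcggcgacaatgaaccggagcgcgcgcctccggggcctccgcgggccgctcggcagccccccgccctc
Nr4a3: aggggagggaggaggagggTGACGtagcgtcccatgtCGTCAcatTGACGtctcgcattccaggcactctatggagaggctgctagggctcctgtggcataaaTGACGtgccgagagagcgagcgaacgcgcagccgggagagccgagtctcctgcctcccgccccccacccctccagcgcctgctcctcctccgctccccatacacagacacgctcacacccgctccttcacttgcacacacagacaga
Egr2: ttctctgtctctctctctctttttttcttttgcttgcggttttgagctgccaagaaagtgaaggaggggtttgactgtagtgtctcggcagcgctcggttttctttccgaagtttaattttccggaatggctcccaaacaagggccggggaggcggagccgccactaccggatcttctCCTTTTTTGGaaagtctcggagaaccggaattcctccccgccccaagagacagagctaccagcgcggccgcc

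Each NR4A window held 4 copies of TGACG or its complement. At least 1 copy occurs in 17.8% of all 32851 promoter windows of this length in the table. A CArG box occurred in 4 of the 5 annotated windows of *Egr2* and in 1.47% of all windows. Of the 7 higher genes of the early list with a window in the table, 5 held TGACG (*Egr2*, *Nr4a1*, *Nr4a2*, *Nr4a3* and *Srf*), as did 8 of the 12 members that were not higher. A CArG box was found for *Egr2*, *Srf* and *Zfp36* and for none of those 12. These matches describe the sequences and show no binding.

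Among later factors, the interferon regulatory factors *Irf4* and *Irf8* stood out. *Irf4*, which directs the effector programme of Treg cells, was at 9.83, 9.64 and 9.80 on activated arrays, against 6.64, 6.88 and 7.16 on unstimulated arrays, a difference of 2.87 (SE 0.12, adjusted p = 1.32e-08). *Irf8*, a close relative better known from myeloid and B cells, was at 9.45, 9.39 and 9.52 on activated arrays, against 5.53, 5.72 and 6.06 on unstimulated arrays. Its difference was 3.68 (SE 0.19), and 2.38 when its transcript clusters were summarised by their median. *Irf1* was higher by 0.67 and *Irf7*, a factor of the type I interferon response, lower, at -0.50. *Batf*, the AP-1 factor that pairs with IRF4 on DNA, was at 7.38, 7.71 and 7.36 on activated arrays, against 6.03, 6.27 and 6.02 on unstimulated arrays, a difference of 1.38 (SE 0.13, adjusted p = 5.54e-06). *Jun* was lower, at -0.75 (SE 0.11). No other member of the list of 16 AP-1, BATF and BACH genes kept a call under every alternative. That list leaves out the AP-1 gene *Fosb*, which was counted among the early factors above and was lower by -1.36.

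Of 22 measured genes of NF-kappaB subunits and feedback, 3 were higher, 7 lower and 12 not called, with a median of -0.12. The calls that held under every alternative were 1 higher and 5 lower. *Tnfaip3*, which encodes the deubiquitinase A20, was lower by a log2 difference of -0.91 (SE 0.13), *Cyld*, another deubiquitinase of the pathway, of -0.81 (SE 0.10) and *Birc3*, a ubiquitin ligase, of -0.65 (SE 0.10). *Traf1* and *Nfkbiz* were lower by -0.50 and -0.43. Opposite to these, *Nfkbid*, a nuclear I-kappaB protein needed for Treg development, was higher by 1.24 (SE 0.11, adjusted p = 3.29e-06).

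**Figure D2:**
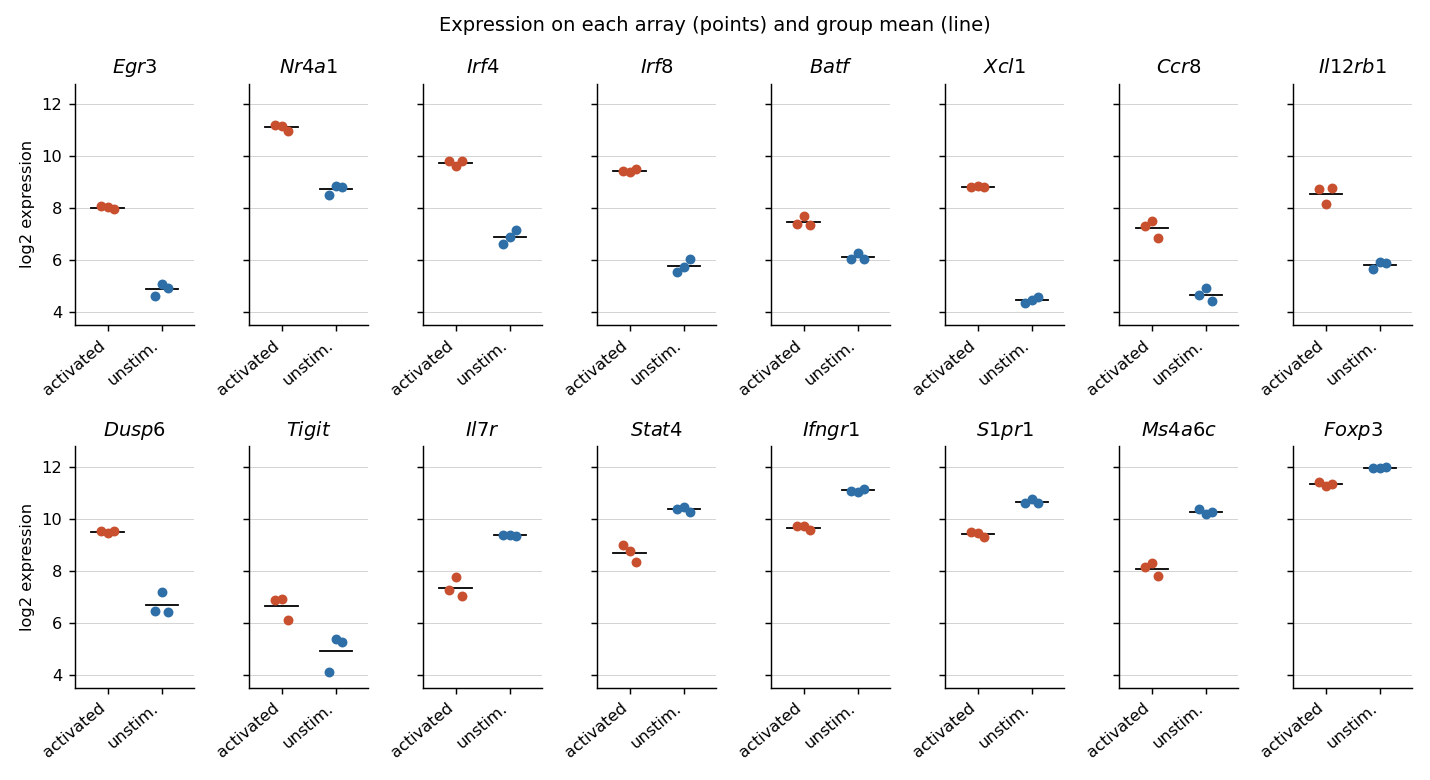
Log2 expression (vertical axis) of 16 genes on each of the 3 activated arrays (red) and the 3 unstimulated arrays (blue), with a line at the group mean. The groups do not overlap for any of them: 10 genes, from *Egr3* to *Tigit*, are higher in activated cells and 6, from *Il7r* to *Foxp3*, are lower.

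Of 23 measured genes that limit RAS and ERK, 7 were higher, 4 lower and 12 not called, and all 11 calls held under every alternative. *Dusp6*, the cytoplasmic phosphatase of ERK, was at 9.54, 9.44 and 9.53 on activated arrays, against 6.45, 7.20 and 6.41 on unstimulated arrays, a difference of 2.82 (SE 0.17), which was 1.74 by the median of its clusters. *Spry1*, a Sprouty inhibitor, differed by 2.00 (SE 0.13). The nuclear phosphatases *Dusp2*, *Dusp5* and *Dusp4* differed by 1.50, 0.98 and 0.93, and *Spred1* and *Spred2* by 0.80 and 0.49. The lower genes were *Dusp10*, a phosphatase of p38 and JNK (-0.88, SE 0.09), and the RAS GTPase activators *Rasa3* (-1.04, SE 0.09), *Rasa1* (-0.86, SE 0.10) and *Rasa2* (-0.42, SE 0.11).

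Components of the receptor's own signalling chain moved in both directions. Of 36 measured genes, 10 were higher and 12 lower, with a median of 0.04. *Zap70*, the kinase that docks on the activated receptor, was at 9.76, 9.78 and 9.62 on activated arrays, against 8.37, 8.61 and 8.52 on unstimulated arrays, a difference of 1.22 (SE 0.10, adjusted p = 1.73e-06). *Tespa1*, which aids calcium release, differed by 1.23 and *Malt1*, a paracaspase, by 1.06. The adaptors *Lat* and *Lcp2* and the receptor chains *Cd3e* and *Cd3g* were higher by 0.38 to 0.50. *Txk*, a TEC-family kinase, had the largest fall of the list, at 9.23, 9.06 and 8.90 on activated arrays, against 10.62, 10.74 and 10.58 on unstimulated arrays (-1.58, SE 0.11). Its neighbour on the chromosome, *Tec*, was also lower (-0.69). The exchange factors *Rasgrp2* and *Rasgrp1* were lower by -1.20 and -0.56, the adaptors *Fyb* and *Grap2* by -1.08 and -1.06, and *Prkcq*, a protein kinase C of T cells, by -0.54.

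Proteins that damp receptor signals split in the same manner, with 10 of 33 higher and 11 lower and a median of -0.06; all 21 calls held under every alternative. Besides *Egr2* and *Egr3*, the higher genes included *Ubash3b*, a phosphatase of ZAP70 (1.85, SE 0.11), *Rgs16* (1.81, SE 0.14), the adaptor *Sla* (1.59, SE 0.12), and the phosphatases *Ptpn6*, which encodes SHP-1 (1.36, SE 0.10), and *Ptpn7* (1.33, SE 0.12). The lower genes included the ubiquitin ligases *Peli1* (-0.63), *Itch* (-0.52) and *Cblb* (-0.51), the phosphatase *Ptpn22* (-0.52), the diacylglycerol kinase *Dgka* (-0.65) and the adaptor *Sla2* (-0.77). RGS proteins shorten signals from G protein-coupled receptors, and here they diverged: while *Rgs16* was higher, *Rgs2* was at 5.75, 6.30 and 6.10 on activated arrays, against 7.68, 8.05 and 8.01 on unstimulated arrays. The difference of *Rgs2* was -1.86 (SE 0.15), and -0.82 by the median of its clusters. *Rgs1* differed by -0.83. Of 34 genes of calcium entry and ion channels, 6 were higher and 11 lower, with a median of -0.08. *Nfatc1* (0.85), the potassium channel *Kcnn4* (0.82) and the calcium channel subunit *Orai1* (0.41) were higher, and the calcineurin subunit *Ppp3ca* (-1.04) and the channel kinase *Trpm7* (-0.73) lower.

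Secreted and membrane-bound ligands held the largest single change. *Xcl1*, a chemokine that attracts XCR1+ dendritic cells, was at 8.82, 8.85 and 8.82 on activated arrays, against 4.33, 4.47 and 4.56 on unstimulated arrays. Its difference was 4.38 (SE 0.38, adjusted p = 1.98e-06), and the SE, which is pooled over the 12 arrays, is much wider than the scatter of these 6. Unstimulated cells were within the silent range, so the log2 difference may understate the change. The same holds for *Ccl3*, an inflammatory chemokine, at 6.16, 6.00 and 5.89 in activated cells, against 3.81, 4.06 and 3.81 in unstimulated cells (2.12, SE 0.21), and for *Il2*, which Treg cells normally keep silent. *Il2* was at 6.39, 6.18 and 5.38 on activated arrays, against 3.34, 3.07 and 2.78 on unstimulated arrays (2.92, SE 0.21, adjusted p = 3.65e-07). The level in activated cells was only slightly above the silent range, and *Ifng* barely left it (0.68, SE 0.15). Of 46 cytokine genes, 7 (15.2%) were higher and 2 (4.35%) lower, beside 11.8% and 12.1% of all genes. Of the 46, 27 had means within the silent range in both groups. Of these cytokine calls, 4 higher and 0 lower held under every alternative: *Il2*, *Mif*, *Csf1* and *Ifng*. No cytokine gene was called lower without activated replicate 2, unstimulated replicate 1 or unstimulated replicate 3. *Mif*, an abundant cytokine, was at 11.80, 11.86 and 11.79 on activated arrays, against 9.83, 10.29 and 10.14 on unstimulated arrays (1.73, SE 0.13). Of 28 chemokine genes, *Xcl1*, *Ccl3* and *Ccl20* (0.72, SE 0.18) were higher and 4 lower. These shares of 10.7% and 14.3% were near those of all genes, and 14 of the 28 genes had means within the silent range in both groups. No lower call held under every alternative, and 1 was left without activated replicate 3, unstimulated replicate 1 or unstimulated replicate 3, and 2 without activated replicate 1.

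TNF-family ligands followed, with 5 of 15 higher and 3 lower and a median of 0.28. *Cd40lg*, the ligand that licenses B cells and dendritic cells, was at 7.50, 7.73 and 7.72 on activated arrays, against 5.52, 5.46 and 5.62 on unstimulated arrays (2.12, SE 0.12, adjusted p = 4.74e-08). *Tnf* differed by 1.54 (SE 0.11). *Tnfsf14*, which encodes LIGHT, and *Tnfsf11*, which encodes RANKL, each differed by 0.93, with unstimulated means within the silent range. *Tnfsf8*, the ligand of CD30, was lower, at -1.36 (SE 0.12), as was *Tnfsf15* (-0.58, SE 0.14), which was within the silent range in activated cells.

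Among 22 chemokine receptor genes, *Ccr8*, *Ccr4* and *Ccr6* were higher, a share of 13.6% beside 11.8% of all genes, and 5 were lower. Of the 22, 10 had means within the silent range in both groups. Of the lower genes, *Cxcr4*, *Cxcr3* and *Ackr2* held under every alternative (3 lower without activated replicate 1 or unstimulated replicate 1). *Ccr8*, a receptor of Treg cells in skin and tumours, was at 7.32, 7.49 and 6.84 on activated arrays, against 4.67, 4.93 and 4.41 on unstimulated arrays (2.55, SE 0.17). *Ccr4*, which guides cells to CCL17 and CCL22, was at 6.84, 6.67 and 6.57 on activated arrays, against 4.72, 4.59 and 4.27 on unstimulated arrays (2.17, SE 0.14). *Ccr6* differed by 0.63. The unstimulated means of all 3 were within the silent range. *Cxcr4*, the receptor of bone marrow and stromal CXCL12, was lower, at -1.12 (SE 0.12), and *Cxcr3*, a receptor of type 1 inflammation, at -0.70 (SE 0.11). *Ccr7*, which brings resting cells into lymph nodes, lay between 9.68 and 9.75 on activated arrays and between 9.74 and 9.82 on unstimulated arrays, a difference of -0.07 (95% interval -0.26 to 0.12) that did not pass the test.

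Cytokine receptor chains were lower more often than higher, with 12 of 48 lower and 6 higher and a median of -0.14. The count of higher genes was 2 without activated replicate 3 or unstimulated replicate 1 and 3 without activated replicate 1, activated replicate 2 or unstimulated replicate 3, and only *Il12rb1* and *Il21r* held under every alternative. *Il12rb1*, shared by the receptors of IL-12 and IL-23, was at 8.76, 8.16 and 8.76 on activated arrays, against 5.67, 5.92 and 5.88 on unstimulated arrays (2.74, SE 0.15, adjusted p = 4.92e-08). *Il21r* differed by 1.38 (SE 0.11). *Il7r*, which supports survival of resting T cells, was at 7.27, 7.77 and 7.03 on activated arrays, against 9.39, 9.39 and 9.36 on unstimulated arrays (-2.02, SE 0.15, adjusted p = 4.9e-07). *Il18r1* was lower by -1.80 (SE 0.18), the IL-10 receptor chain *Il10ra* by -1.23 (SE 0.13) and *Il17ra*, *Il6ra* and *Il4ra* by -0.61, -0.60 and -0.47. Interferon receptor chains were also lower. *Ifngr1* was at 9.71, 9.74 and 9.56 on activated arrays, against 11.09, 11.04 and 11.17 on unstimulated arrays (-1.43, SE 0.09), *Ifngr2* differed by -0.70 and *Ifnar1* by -0.67.

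Of 22 JAK, STAT and SOCS genes, which act below these receptors, 10 were lower, 11 were not called and *Socs2* alone was higher, with a median of -0.26. The count of lower genes was 6 without unstimulated replicate 2, without unstimulated replicate 3 and with the arrays centred. *Stat4*, which carries the IL-12 signal, was at 8.98, 8.76 and 8.34 on activated arrays, against 10.39, 10.46 and 10.28 on unstimulated arrays (-1.68, SE 0.15, adjusted p = 2.35e-06). *Il12rb1* and *Stat4*, which act in one pathway, thus differed in opposite directions. *Stat5b*, which carries the IL-2 signal, was lower by -0.83 (SE 0.10), *Jak2* by -0.67 and *Jak1* by -0.35. *Socs2* was higher by 1.30 (SE 0.13), with 0.81 by the median of its clusters, and *Socs3* lower, at -0.62 (SE 0.12).

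**Figure D3:**
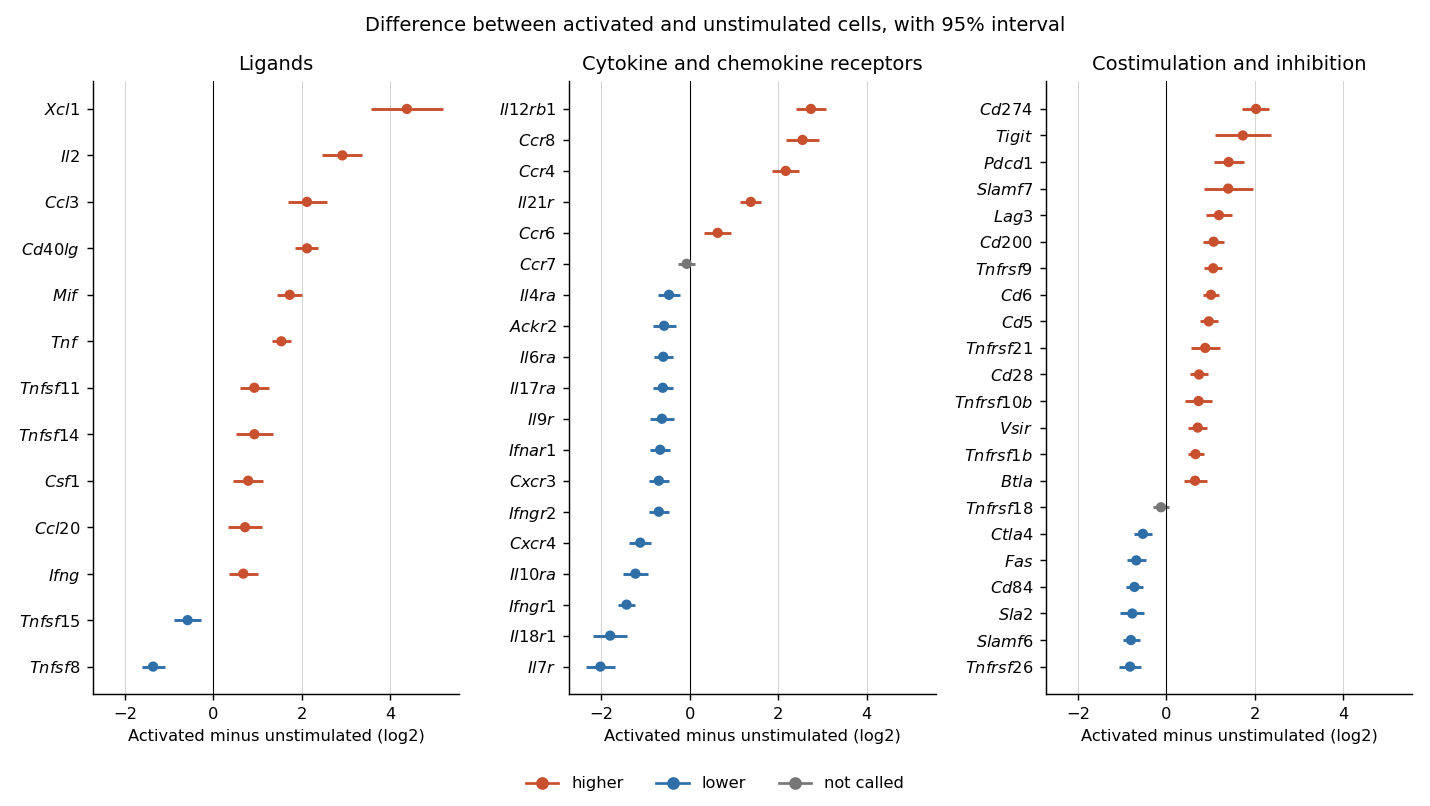
Activated minus unstimulated log2 expression (horizontal axis) of named ligands (left), cytokine and chemokine receptors (middle) and genes of costimulation and inhibition (right), with the 95% interval of the limma fit. The right panel holds receptors, the ligand gene *Cd274* and the adaptor gene *Sla2*. Among these chosen genes, ligands lie mostly to the right of 0 and cytokine receptors mostly to the left, while *Ccr7* and *Tnfrsf18* (grey) did not pass the test. Over the whole lists, the median change was 0.03 for cytokines, 0.01 for chemokines, 0.28 for TNF-family ligands and -0.14 for cytokine receptor chains. Means were within the silent range in both groups for 27 of 46, 14 of 28, 4 of 15 and 15 of 48 of these genes, in that order.

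Inhibitory receptors were higher in 8 of 23 cases and lower in 4, with a median of 0.05. All 8 higher calls held under every alternative, while the lower count was 2 without activated replicate 3, without unstimulated replicate 2 and with the arrays centred. *Tigit*, which competes with CD226 for CD155, was at 6.88, 6.92 and 6.13 on activated arrays, against 4.10, 5.37 and 5.26 on unstimulated arrays (1.73, SE 0.30, adjusted p = 0.000595); the unstimulated mean was within the silent range, and the difference was 1.33 without the low unstimulated replicate 1. *Pdcd1*, which encodes PD-1, was at 8.05, 8.06 and 7.99 on activated arrays, against 6.78, 6.59 and 6.51 on unstimulated arrays (1.41, SE 0.16). *Lag3* differed by 1.19 (SE 0.14), *Cd200* by 1.07, *Cd6* by 1.01, *Cd5* by 0.96, *Vsir* by 0.71 and *Btla* by 0.65. *Ctla4*, which strips CD80 and CD86 from other cells, was lower, at 9.47, 9.26 and 9.46 on activated arrays, against 9.95, 9.91 and 9.93 on unstimulated arrays (-0.53, SE 0.10, adjusted p = 0.0012). Of 21 costimulators and ligands of the immunoglobulin family, 7 were higher and 2 lower, and 5 higher and 2 lower calls held under every alternative. *Cd274*, which encodes the PD-1 ligand PD-L1, was at 8.10, 7.72 and 8.24 on activated arrays, against 6.08, 5.86 and 6.04 on unstimulated arrays (2.03, SE 0.14). *Slamf7* and *Cd28* were higher by 1.40 and 0.74, and *Slamf6* and *Cd84* lower by -0.80 and -0.72.

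Of 26 TNF receptor genes, 6 were higher and 2 lower, and 4 higher and 2 lower calls held under every alternative. *Tnfrsf9*, which encodes 4-1BB, differed by 1.06 (SE 0.10), *Tnfrsf21* by 0.88 with an unstimulated mean within the silent range, *Tnfrsf10b* by 0.73 and *Tnfrsf1b*, the TNF receptor of Treg cells, by 0.66. *Fas* was lower, at -0.68 (SE 0.10), and *Tnfrsf26* at -0.82 (SE 0.12). *Tnfrsf18*, which encodes GITR, differed by -0.12 (95% interval -0.31 to 0.07) and did not pass the test.

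Of 38 measured transcription factors of Treg lineage and effector states, 6 were higher, 11 lower and 21 not called, with a median of -0.09. Beside *Foxp3*, *Ikzf4*, which encodes the FOXP3 partner Eos, was lower by -0.69 (SE 0.09), and *Ikzf2*, which encodes Helios, differed by -0.28 (95% interval -0.56 to -0.01) and did not pass the test after adjustment. *Lef1*, *Satb1*, *Bcl6*, *Myb* and *Ets1*, factors of resting or developing T cells, were lower by -0.87, -0.81, -0.70, -0.60 and -0.59, and *Zeb1* by -1.13. *Tbx21*, which encodes T-bet, lay between 6.52 and 7.12 on activated arrays and between 5.36 and 5.80 on unstimulated arrays (1.29, SE 0.18). *Id3*, *Gfi1*, *Hivep3* and *Ikzf3* were higher by 1.20, 0.76, 0.68 and 0.44.

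Genes of suppressive and cytotoxic function were divided, with 8 of 32 higher and 10 lower (6 lower without activated replicate 2, without unstimulated replicate 2 and with the arrays centred). *Gzmb*, the granzyme by which some Treg cells kill, was at 6.90, 6.87 and 7.24 on activated arrays, against 4.68, 5.50 and 5.11 on unstimulated arrays (1.91, SE 0.18, adjusted p = 3.85e-06), where the unstimulated mean was within the silent range. *Nkg7*, a granule protein of cytotoxic cells, differed by 1.99 (SE 0.14), and *Lgals1*, which encodes galectin-1, by 0.71 (SE 0.13). *Nt5e*, which encodes CD73 and makes adenosine, was at 9.62, 9.79 and 9.52 on activated arrays, against 10.65, 10.54 and 10.67 on unstimulated arrays (-0.98, SE 0.12). *S100a4*, *Nrp1*, *Gpr83* and *Lrrc32*, which encodes the TGF-beta anchor GARP, were lower by -0.78, -0.61, -0.51 and -0.42. Of 8 NK cell markers, *Nkg7* among them, 2 were higher and 5 within the silent range in both groups. Their mean was 4.67 to 4.80 on activated arrays and 4.39 to 4.55 on unstimulated arrays, and the part of NK cells in these values was not tested.

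Genes of quiescence and of homing to lymph nodes were mostly lower. Of 35 measured, 22 were lower and 3 higher, with a median of -0.66, and 20 of the lower calls held under every alternative. *S1pr1*, which lets cells leave lymph nodes, was at 9.51, 9.47 and 9.31 on activated arrays, against 10.63, 10.77 and 10.61 on unstimulated arrays (-1.24, SE 0.10), and its relative *S1pr4* differed by -0.73. *Cdkn1b*, the cell cycle inhibitor p27, differed by -1.16 (SE 0.11), *Ccng2* by -1.09, *Txnip*, which limits glucose uptake, by -0.99, and the pocket proteins *Rb1* and *Rbl2* by -0.88 and -0.69. *Igfbp4* and *Dapl1*, which are known as markers of naive T cells, went the other way, at 1.14 (SE 0.23) and 0.65 (SE 0.12). Of 17 Kruppel-like factors, 6 were lower and 0 higher, including *Klf6*, *Klf3* (-1.25, SE 0.12), *Klf2*, which drives *S1pr1* (-0.94, SE 0.12), and *Klf13* (-0.53); 2 others were called higher after quantile normalization and with the arrays centred.

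Many members of a pair of clustered gene families were lower. Of 8 GIMAP genes, GTPases that support lymphocyte survival, 7 were lower and 0 higher, with a median of -0.57. *Gimap4* was at 10.51, 10.44 and 10.44 on activated arrays, against 11.30, 11.40 and 11.33 on unstimulated arrays (-0.88, SE 0.09), and *Gimap8*, *Gimap6* and *Gimap3* differed by -0.82, -0.78 and -0.68. On chromosome 6, 6 neighbouring GIMAP genes were all called lower, one of the 4 longest unbroken runs of calls in the genome. Of 16 MS4A genes on chromosome 19, which encode tetraspan membrane proteins, 7 were lower, 1 was higher and 8 were not called, with a median of -0.06. Of the 16, 9 had means within the silent range in both groups. The 7 lower calls held under every alternative and the higher one did not. *Ms4a6c* was at 8.16, 8.31 and 7.79 on activated arrays, against 10.37, 10.19 and 10.27 on unstimulated arrays (-2.19, SE 0.15, adjusted p = 2.03e-07). *Ms4a4b*, which modulates GITR signalling, differed by -1.49 (SE 0.10), *Ms4a4c* by -1.36, *Ms4a4a* by -1.32 and the bright *Ms4a6b* by -0.97. Members of each family are similar in sequence, and cross-hybridisation between them was not tested.

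Of 25 integrin genes, 3 were higher (12%) and 4 lower (16%), and of 28 other adhesion genes 4 were higher (14.3%) and 6 lower (21.4%), beside 11.8% and 12.1% of all genes. Of these, 12 integrin genes and 7 other adhesion genes had means within the silent range in both groups. The 2 chains of LFA-1, *Itgal* and *Itgb2*, which bind ICAM-1, were higher by 0.96 (SE 0.11) and 0.89 (SE 0.10). The alpha chains *Itga4* of VLA-4 and *Itga6* of the laminin receptor were lower, at -1.13 (SE 0.10) and -1.02 (SE 0.11). *Itgb3* and *Itga2b*, which form the fibrinogen receptor of platelets, were lower by -1.02 and -0.65. The defining platelet genes *Pf4* and *Ppbp* stood within the silent range, with differences of -0.19 and -0.08 that did not pass the test, while 3 of the 8 platelet markers were lower. *Alcam*, the ligand of CD6, was higher by 1.35 (SE 0.13), and *Cd44*, by whose low protein level the cells were sorted, by 0.98 (SE 0.15). *Ly6c1* was lower, at -1.41 (SE 0.24), as were the CD8 T cell marker *Cd7* (-1.59, SE 0.16) and *Cd55* (-1.40, SE 0.13). Of 48 G protein-coupled receptors of lipids, nucleotides and neuropeptides, 8 (16.7%) were higher and 10 (20.8%) lower, with a median of -0.13. Of the 48, 20 had means within the silent range in both groups. *Gpr183*, which senses oxysterols and positions cells in follicles, was at 8.31, 8.43 and 8.02 on activated arrays, against 5.93, 6.14 and 6.27 on unstimulated arrays (2.14, SE 0.14). *Ptger2*, a receptor of prostaglandin E2, was higher by 1.27, *Gpr18* by 1.01 and *Gpr171* by 1.63, with 0.73 by the median of its clusters. *P2ry10* was lower, at -1.25 (SE 0.10).

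Interferon-stimulated genes did not move together. Of 39 measured, 7 (17.9%) were higher and 4 (10.3%) lower, beside 11.8% and 12.1% of all genes. The median was 0.12, and 28 did not pass the test. The higher genes included the interferon-gamma-induced GTPases *Iigp1*, at 10.21, 9.84 and 10.28 on activated arrays, against 7.92, 8.25 and 8.13 on unstimulated arrays (2.01, SE 0.22), and *Irgm1* (1.79, SE 0.22). *Rtp4* (1.67, SE 0.21), *Bst2*, which tethers budding virions (1.20, SE 0.11), and *Oasl2* (0.85, SE 0.14) were also higher, as was *Ifitm2* outside the list (2.16, SE 0.19), from an unstimulated mean within the silent range. The lower genes were *Samd9l* (-0.75), *Ddx58*, which encodes the RNA sensor RIG-I (-0.63), *Sp100* (-0.60) and *Irf7*. Promoter stretches of *Irgm1* and *Bst2* are printed because they carry the motif read by IRF and STAT complexes in such genes, a pair of GAAA runs separated by any 2 bases, in capitals where 2 copies overlap. They are from RefSeq on GRCm38.p6, at chr11:48871421-48871475 and chr8:71537562-71537627, each on the minus strand.
Irgm1: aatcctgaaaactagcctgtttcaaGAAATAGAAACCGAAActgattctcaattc
Bst2: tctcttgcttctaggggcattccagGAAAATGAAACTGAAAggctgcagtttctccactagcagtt

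This motif, on either strand, occurs in 2.98% of all 32851 windows of 250 bases before a start. Among list members with a window, it was present in 4 of 5 higher genes (*Bst2*, *Irgm1*, *Gbp5* and *Igtp*, the last 2 of which lost their calls under some alternatives) and in 10 of 21 others. The difference between these shares was not tested.

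Of 18 BCL2 family genes, 5 were higher, 4 lower and 9 not called, and 3 in each direction held under every alternative. The higher count was 3 without activated replicate 1 or activated replicate 2. *Bcl2*, which protects resting T cells, was at 10.93, 10.91 and 10.75 on activated arrays, against 11.58, 11.58 and 11.61 on unstimulated arrays (-0.73, SE 0.09). *Bcl2l1*, which encodes BCL-XL, was at 6.92, 7.22 and 7.01 on activated arrays, against 5.69, 6.01 and 6.25 on unstimulated arrays (1.07, SE 0.14). *Bcl2a1a*, whose sequence is near identical to other A1 copies, was higher by 1.06. *Mcl1* was lower, at -0.46, as was the killer *Bcl2l11*, which encodes BIM (-0.49). Of 19 genes of caspases and death machinery, 5 were higher and 4 lower, but the higher count was 2 without unstimulated replicate 1 and 3 without activated replicate 1 or unstimulated replicate 3. *Casp8* (-0.78, SE 0.09) and *Apaf1* (-0.86, SE 0.12) were lower and *Casp4* (0.61, SE 0.13) higher.

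Chromatin regulators were lower in 23 of 49 cases and higher in 5, with a median of -0.28; 16 lower and 4 higher calls held under every alternative. The histone methyltransferases *Kmt2a* and *Kmt2d* were lower by -0.82 and -0.76, *Ezh1* by -0.67, the acetyltransferases *Ep300* and *Crebbp* by -0.55 and -0.47, and *Arid5a* by -0.94. *Hdac7*, a class IIa deacetylase of T cells, was the clear exception, at 9.65, 9.62 and 9.42 on activated arrays, against 7.56, 7.57 and 7.57 on unstimulated arrays (2.00, SE 0.11, adjusted p = 5.85e-08). The DNA methyltransferases *Dnmt3a* and *Dnmt1* were higher by 1.00 and 0.57. Of 35 genes of Notch, Wnt and TGF-beta signalling, 13 were lower and *Rbpj*, the DNA-binding factor of the Notch pathway, alone was higher (1.21, SE 0.14), though 3 were without activated replicate 3. The lower genes included *Skil* (-1.08, SE 0.11), *Smad7* (-0.76, SE 0.10), *Smad4* (-0.62) and the ligases *Smurf1* and *Smurf2* (-0.83 and -0.58), which act at several steps of the TGF-beta pathway.

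Protein folding and turnover held the highest shares of higher genes among the lists examined. Of 34 proteasome genes, 28 were higher and 0 lower, with a median of 0.57; *Pomp*, its assembly factor, differed by 1.06 (SE 0.12) and the activator *Psme3* by 0.89. Of 27 cytosolic and mitochondrial chaperones, 21 were higher, led by *Hspd1*, the chaperonin of mitochondria (1.91, SE 0.10), and *Hspa9* (1.31, SE 0.10), with a median of 0.67. The stress-inducible *Hspa1a* alone was lower (-0.92, SE 0.21), and within the silent range in activated cells. Of 46 genes of the endoplasmic reticulum, 26 were higher and 4 lower, with a median of 0.36. *Sdf2l1*, a cochaperone of BiP, was at 8.69, 8.87 and 8.43 on activated arrays, against 6.09, 6.37 and 6.28 on unstimulated arrays (2.42, SE 0.13), while *Hspa5*, which encodes BiP, differed by 0.54 (SE 0.12). *Calr* was higher by 1.02. The lower genes that held under every alternative were *Ern1*, the stress sensor IRE1 (-0.98, SE 0.14), *Ero1b* (-0.68) and *Dnajb9* (-0.45). Of 41 lysosome and autophagy genes, 12 were lower, 7 higher and 22 not called, with a median of -0.14. The higher count was 3 without unstimulated replicate 1 and 4 without activated replicate 2. The lower genes included *Tecpr1* (-1.35, SE 0.10), *Ulk2* (-0.87), *Map1lc3b*, which encodes LC3B (-0.69), and *Sqstm1*, which encodes p62 (-0.62). The lysosomal hydrolase *Gusb* was higher by 1.49 (SE 0.10).

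**Figure D4:**
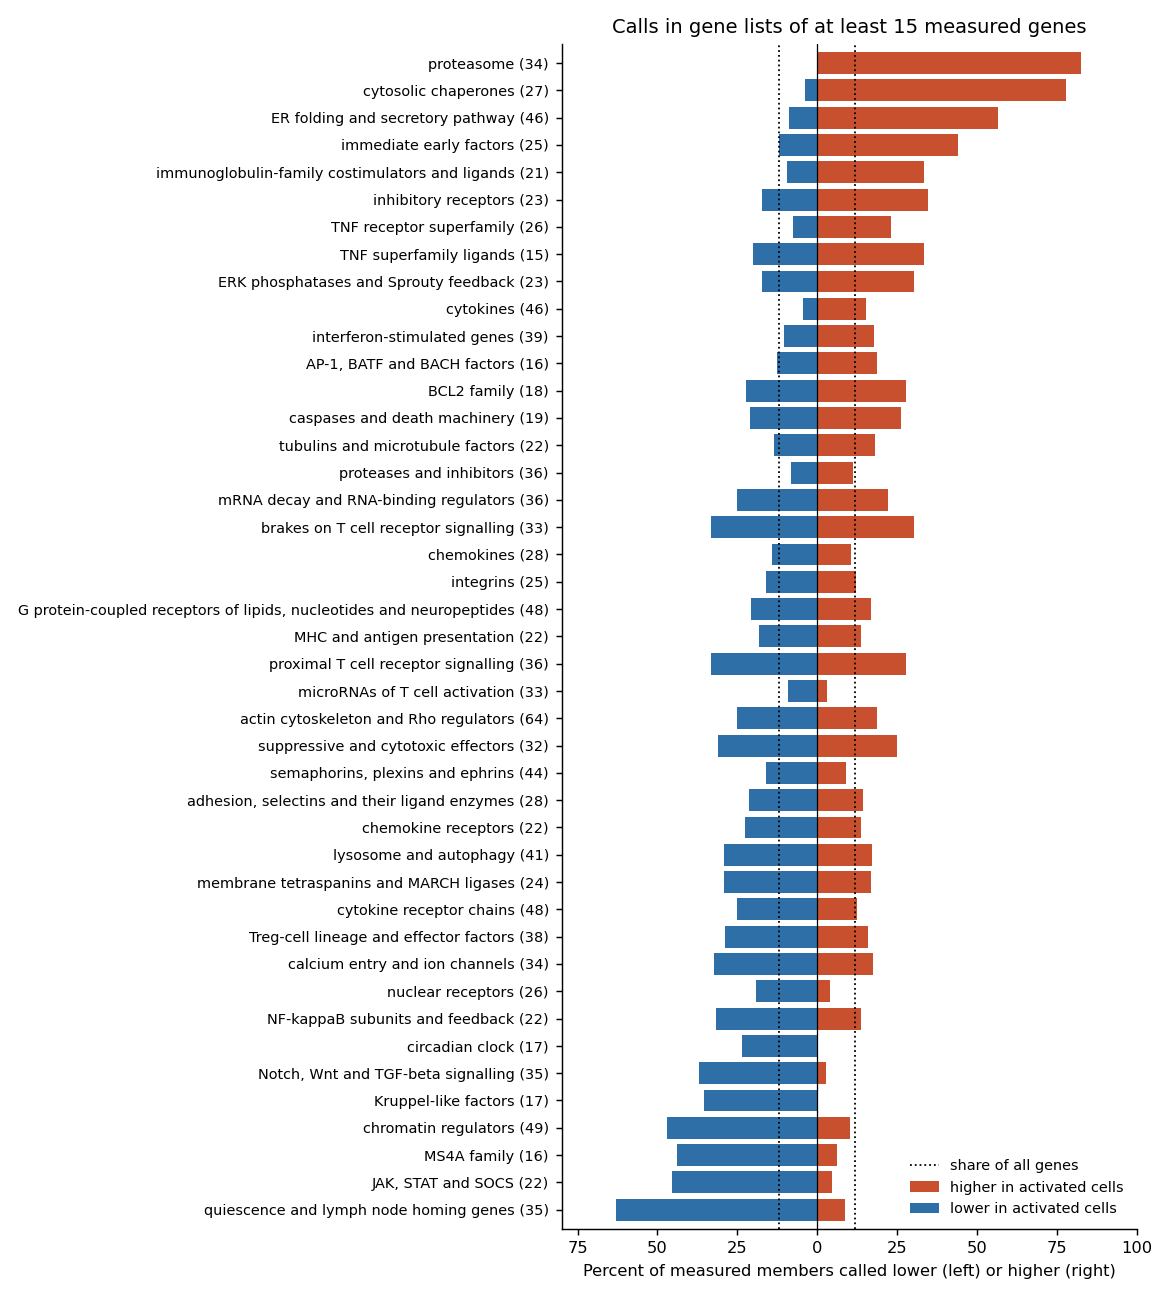
Percent of the measured members of each gene list (number in parentheses) called higher (red, to the right) or lower (blue, to the left) in activated cells, for lists of at least 15 genes. Dotted lines mark the shares of all genes tested, 11.8% higher and 12.1% lower, which are not matched for level. The proteasome list leads on the right with 28 of 34, and the list of quiescence genes on the left with 22 of 35.

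Shares of called genes also differed between classes of noncoding RNA. Of 80 small nucleolar RNAs (snoRNAs), which guide the modification of ribosomal and other RNA, 27 (33.8%) were higher and 2 (2.5%) lower, with a median of 0.31. Over all genes the shares were 11.8% and 12.1%. *Snora73b* was at 9.17, 9.23 and 9.04 on activated arrays, against 7.58, 7.39 and 7.20 on unstimulated arrays (1.75, SE 0.12), and *Snora73a* differed by 1.49. *Snord52* and *Snord69* differed by 1.88 and 1.79, with unstimulated means within the silent range. On chromosome 4 both Snora73 genes, their host *Snhg3* (0.77, SE 0.13) and their neighbours *Rcc1*, *Trnau1ap* and *Snord99* formed a run of 6 higher genes, in which the calls of *Rcc1* and *Trnau1ap* were not followed under the alternatives. The call of *Snord99* (0.61) was lost on leaving out activated replicate 1, activated replicate 2 or unstimulated replicate 1, at adjusted p of 0.0652, 0.0531 and 0.0879 in that order, and without empirical Bayes. The snoRNA hosts *Snhg4*, *Snhg5* and *Snhg1* were higher by 1.58, 1.03 and 0.61. Of 1926 long noncoding RNAs, 59 (3.06%) were higher and 167 (8.67%) lower, with a median of -0.06. Both shares lay below the 11.8% and 12.1% of all genes. *Malat1*, a nuclear RNA of nuclear speckles, was at 10.87, 10.63 and 10.76 on activated arrays, against 11.42, 11.43 and 11.40 on unstimulated arrays (-0.66, SE 0.11). Its neighbour *Neat1*, the scaffold of paraspeckles, differed by -0.73 (SE 0.17), *Tug1* by -0.91 (SE 0.11) and *Lncpint* by -0.95 (SE 0.16).

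Of 478 microRNA genes, 30 (6.28%) were higher and 47 (9.83%) lower, both below the shares of 11.8% and 12.1% over all genes. Here too the comparison is not matched for level. The array probes the precursor or primary transcript, not the mature microRNA. *Mir363* was the member of the X-linked cluster of miR-106a to miR-363 with the largest difference, at 4.44, 4.71 and 6.40 on activated arrays, against 3.22, 2.84 and 3.17 on unstimulated arrays (2.10, SE 0.44, adjusted p = 0.00292). Activated replicate 3 was far above the other 2, and the difference without it was 1.50. The mature sequences of the measured cluster members are shown, from RefSeq on GRCm38.p6 (chromosome X, minus strand), with the seed, bases 2 to 8, in capitals. The seed AUUGCAC is shared by the first 2.
mmu-miR-363-3p: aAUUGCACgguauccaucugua
mmu-miR-92a-3p: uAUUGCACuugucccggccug
mmu-miR-18b-5p: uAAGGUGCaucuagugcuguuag
mmu-miR-20b-5p: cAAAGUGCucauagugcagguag
mmu-miR-19b-3p: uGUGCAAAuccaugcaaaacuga

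The other members of the cluster did not show a difference of that size. *Mir18b* differed by 0.78 (SE 0.25, adjusted p = 0.0385) and lost its call on leaving out any of 4 arrays, at an adjusted p of 0.0855 (activated replicate 2), 0.163 (activated replicate 3), 0.114 (unstimulated replicate 1) and 0.119 (unstimulated replicate 3). *Mir92-2*, the X-linked gene of miR-92a, differed by 0.50 (SE 0.17, adjusted p = 0.0485), with the call lost without each array but activated replicate 3 (adjusted p between 0.0595 and 0.179). *Mir20b* and *Mir19b-2* differed by -0.32 and 0.08 and did not pass the test. All of these means lay within the silent range except that of *Mir363* in activated cells.

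**Figure D5:**
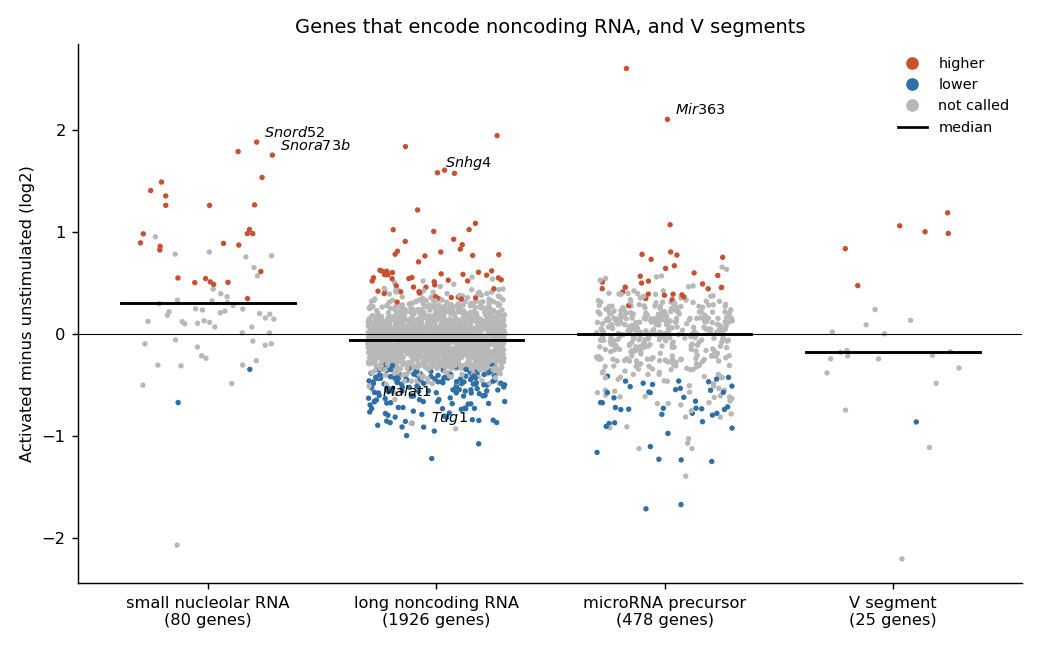
Activated minus unstimulated log2 expression (vertical axis) of genes of 3 classes of noncoding RNA and of V segments of antigen receptors, 1 point for each gene, coloured by call, with a line at the median. The 80 snoRNA genes sit higher (median 0.31, 27 higher and 2 lower) than the 1926 long noncoding RNA genes (59 higher and 167 lower).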

How the data were processed

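Expression was measured on GeneChip Mouse Gene 2.0 ST arrays, 12 in all, as 4 groups of 3. The values are log2 expression levels as deposited, which the authors made by RMA, with Partek 6.6 also named in the submitters' processing notes. The genome build is not given in the sources used here. RMA normalizes probe intensities across arrays, which can hide a change shared by most genes. Of 41345 transcript clusters, 23521 carried exactly 1 gene symbol. For each of the 22180 genes the cluster with the highest mean was kept.

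The 4 group means were fitted with limma 3.58.1 (lmFit and eBayes, R 4.3.3) on all 12 arrays, with the contrast activated minus unstimulated and p-values adjusted by Benjamini-Hochberg. A gene was called at an adjusted p under 0.05. The procedure was tested on simulated data, but the outcome is not given here and lends no support to the results. Arrays of a group correlated at 0.9792 to 0.9873, and their number limits the precision. The study's methods call the samples biological triplicates, and the sources used here do not say whether each came from separate animals.

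The comparison, the 47 gene lists and the 11 marker lists were chosen with earlier results of these data known. Named genes were drawn from the 40 largest changes per direction, up to 8 called members per list by size of change, marked list members, small counts and marker lists, and a few others were chosen after their values were seen. Alternatives varied the scaling, the filter on dim genes, the choice of cluster, the fit and the arrays included. Gene symbols, classes and sequences came from RefSeq.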

Additional observations from a re-analysis of the deposited data

Results flagged for a closer look

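The transcript clusters with no gene symbol or with several entered no comparison above, and they carried signal too. In a fit of all clusters, 963 of these 17824 were higher in activated cells and 1470 were lower (limma, Benjamini-Hochberg adjusted p under 0.05), of which 249 and 353 changed at least 2-fold. What they encode was not examined. With 3 arrays in each group, no single array was tested for lying apart from the others.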

How the results depend on the processing

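Of 5290 calls in all, 3284 had an adjusted p under 0.01, 1514 of them lower, and 746 were at least 2-fold, with 568 higher and 178 lower. Leaving out 1 array gave 2075 to 2397 higher and 2006 to 2297 lower genes. Under all other alternatives the counts stayed within 1.5 times those reported. Of 292 named genes that were called, 288 were called under each of the 16 alternatives and none changed sign. The exceptions were *Snord99*, *Mir18b*, *Mir92-2* and *Cd79b*, the last losing its call without unstimulated replicate 3 (limma, adjusted p = 0.0613). *Mir18b* also lost its call with all transcript clusters in the fit, without empirical Bayes and with array weights, and *Mir92-2* with all clusters, without empirical Bayes and with the replicate block. Named genes were drawn largely by size of change, so 288 of 292 does not describe all calls. Among cytokines, 4 of 7 higher and 0 of 2 lower calls held under every alternative. Among lysosome and autophagy genes, 3 of 7 higher and 9 of 12 lower calls held. All 7 higher and 4 lower calls of genes that limit RAS and ERK held. With the replicate number as a block, 2568 genes were higher and 2593 lower. Deviations of same-numbered arrays correlated at -0.056, 0.05 and -0.072, and those of differently numbered arrays at -0.058 to 0.111. No strong effect shared by a replicate number was seen. With 3 arrays in each group, this cannot show whether the numbers paired the samples. Values within the silent range hold little order, which limits differences of dim genes.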
